A study of Mus musculus with 2 samples.

Results

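The miRNA genes Mir322, Mir503, Mir351, Mir542, Mir450-2, Mir450-1 and Mir450b form a tight group on the X chromosome of the mouse. They were taken by gene symbol from the deposited count tables, where all 7 were found among 1973 genes. The tables come from small RNA libraries of midbrain tissue of healthy B6NCrl mouse embryos at 15.5 days of development, male and female embryos pooled. Each library held RNA under 30 bases. Replicate 1 was made from 78 embryos and replicate 2 from 62, and both are labelled as biological replicates. With 1 group of 2 libraries, the questions are how the members differ in level along the cluster, how they sit within their seed families, and how far the pools differ. No treatment, genotype or second tissue enters.

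A miRNA is a short RNA cut from a hairpin, and it guides Argonaute proteins to messenger RNAs that pair with its seed, bases 2 to 8 from the 5′ end. Each hairpin can yield a miRNA from its 5′ arm (5p) and another from its 3′ arm (3p). miRNAs with the same seed are grouped as a family because they can pair with the same sites. In mouse myoblasts, miR-322 and miR-503 are known to rise during differentiation and to favour exit from the cell cycle through Cdc25a. miR-322-5p carries the seed of the miR-15 and miR-16 family, which is known for restraining the cell cycle. miR-351-5p carries the seed of miR-125, the vertebrate counterpart of worm lin-4, a timer of development. miR-542-3p has been studied in human cells as a regulator of survivin.

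The mature sequences below, from RefSeq on GRCm38.p6, show how the cluster divides by seed. All 7 genes had mature entries. Capitals mark the seed, and 1 arm is shown per hairpin, since the counts are per gene and do not tell the arms apart.
miR-322-5p: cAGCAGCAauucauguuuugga
miR-503-5p: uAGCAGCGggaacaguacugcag
miR-351-5p: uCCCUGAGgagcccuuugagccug
miR-542-3p: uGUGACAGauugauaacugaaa
miR-450a-5p: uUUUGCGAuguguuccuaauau
miR-450b-5p: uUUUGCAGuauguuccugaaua
With positions counted from the 5′ end and the base of miR-322-5p written first, miR-503-5p differs within the seed by A8G. These 2 miRNAs therefore share bases 2 to 7 but not the full seed. The seeds of miR-450a-5p and miR-450b-5p differ by G7A and A8G, with the base of miR-450a-5p first. No other mouse gene in the RefSeq table used carries the full seed of miR-503-5p, miR-542-3p, miR-450a-5p or miR-450b-5p.

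Family members from elsewhere in the genome show what the cluster shares beyond the seed, again with the seed in capitals.
miR-15a-5p: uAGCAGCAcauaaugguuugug
miR-16-5p: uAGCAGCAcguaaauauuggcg
miR-497a-5p: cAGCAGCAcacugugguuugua
miR-125a-5p: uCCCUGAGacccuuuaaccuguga
miR-125b-5p: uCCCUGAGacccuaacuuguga
Compared without gaps, miR-322-5p matched miR-15a-5p at 15 of 22 bases and miR-16-5p at 12. miR-351-5p matched miR-125a-5p over its first 8 bases and at 10 of 24 in all. Past the seed, the first difference of miR-351-5p from both miR-125 sequences is G9A.

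Mir450-2 and Mir450-1 both encode miR-450a-5p, which decides how their reads can be counted. Their hairpins are shown with that shared miRNA in capitals.
Mir450-2: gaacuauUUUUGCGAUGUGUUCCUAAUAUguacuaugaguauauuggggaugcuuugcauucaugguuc
Mir450-1: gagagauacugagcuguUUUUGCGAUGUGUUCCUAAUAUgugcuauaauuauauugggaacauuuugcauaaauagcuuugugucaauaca
The longest stretch common to the pair is 25 bases, so a full read of miR-450a-5p fits both genes. Their 3p arms can be told apart from each other and from that of Mir450b. Capitals in the next lines mark the 6 of 22 positions at which the 3 arms are not all alike.
miR-450a-2-3p: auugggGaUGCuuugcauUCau
miR-450a-1-3p: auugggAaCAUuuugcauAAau
miR-450b-3p: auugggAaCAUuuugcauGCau
The 3p arms of Mir450-1 and Mir450b agree over their first 18 bases and differ at 2 positions after those.

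On mm10 the cluster spans 6353 bases of chromosome X, from 53047997 to 53054349, on the minus strand. Transcription therefore runs from Mir322 to Mir450b. Mir322 lies at 53054255 to 53054349, Mir503 at 53053984 to 53054054 and Mir351 at 53053255 to 53053353. After a gap of 3767 bases, the widest in the cluster, come Mir542 at 53049403 to 53049487, Mir450-2 at 53048299 to 53048367, Mir450-1 at 53048154 to 53048244 and Mir450b at 53047997 to 53048078. No annotated transcript of another gene in GENCODE M21 covers a member on either strand, so none is placed in an exon, an intron or a UTR. The noncoding gene Gm28730 lies between Mir351 and Mir542, and the noncoding transcript C430049B03Rik lies 696 bases upstream of Mir322. Hprt, on the plus strand, lies 26337 bases from the Mir450b end. No other miRNA gene lies within 100 kb.

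Sense reads assigned to miRNA genes totalled 3429704 in replicate 1 and 5752476 in replicate 2. Levels are given as CPM, sense reads scaled to a common library total, and each read adds 0.292 CPM in replicate 1 or 0.174 CPM in replicate 2. Because every read is a small RNA of similar length, CPM is not divided by gene length, and levels of different miRNAs are compared as reads, not molecules. Of the fixed tissue markers, 9 of 10 neural miRNA genes in the table were detected, with a summed 19211 and 20731 CPM, of which Mir137 alone had 10800.1 and 11585 CPM. Of 8 muscle genes, 4 were detected, at a summed 39.4 and 77.9 CPM, and Mir1a-1, Mir133a-1 and Mir133a-2 had no count. These 3 genes, like the neural Mir124a-1, Mir124a-2 and Mir124a-3 (0.522 to 4.08 CPM), share at least 20 bases with other miRNA genes. So do the markers Mir9-2, Mir9-3, Mir128-1, Mir128-2, Mir133b, Mir199a-1, Mir199a-2, Mir199b and Mir126a, and the list sums may leave out reads of such copies. Because the tables keep reads that fit several places in a row of their own, low or absent counts of such copies do not show that the miRNA is low or absent. Mesenchymal genes summed to 4006 and 3979 CPM (4 of 5 detected), of which Mir140 alone had 3692 and 3671 CPM. Vessel genes summed to 31300 and 27436 CPM (3 of 3), of which Mir126a alone had 24909 and 21568 CPM. In bulk tissue, fewer cells of a type and less RNA per cell cannot be told apart.

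The cluster was counted in midbrain mostly as Mir322. All 7 members reached 1 CPM in both libraries, as did 22.5% of the 1973 genes. Mir351 was the clear second, Mir542, Mir503 and Mir450b were lower, and both Mir450a copies were close to the detection limit. In all, the cluster held 0.836% of sense counts in replicate 1 (95% exact interval 0.826 to 0.845) and 0.877% in replicate 2 (0.869 to 0.884). Its sum was 8562 ± 292 CPM (SD, n = 2), of which the 6 members other than Mir322 made up 1158 ± 84.6 CPM. Intervals cover counting error only.

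**Figure D1:**
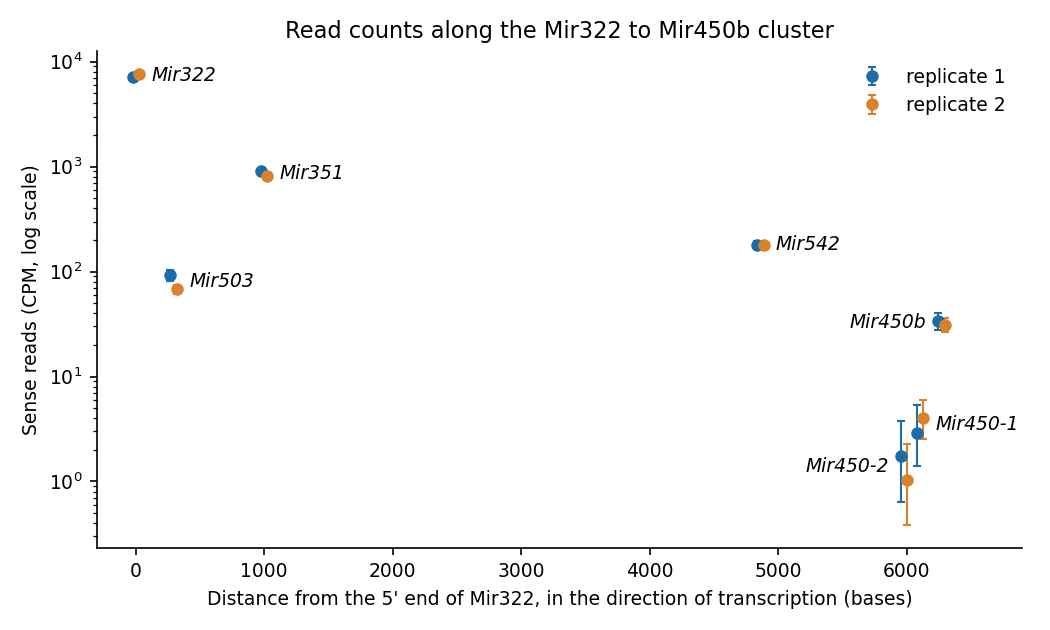
Sense reads of the 7 members (CPM, log scale) against distance in bases from the 5′ end of Mir322 in the direction of transcription. Points are the 2 libraries, set slightly apart for visibility, with exact 95% Poisson intervals. Mir322 lies at 7138 and 7670 CPM, and Mir450-2, toward the far end, at 1.75 and 1.04 CPM.

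Mir322, the first hairpin of the cluster, had 24480 reads in replicate 1 and 44121 in replicate 2, or 7138 and 7670 CPM. Its mean of 7404 ± 376 CPM (SD, n = 2) placed it 28th of all miRNA genes by level. It was the highest of the 120 miRNA genes on the X chromosome, where it held 21.8% of reads in replicate 1 and 22.9% in replicate 2. These ranks and shares, and the ranks below, rest on reads assigned to a gene. Genes that share sequence with others may be undercounted, since reads fitting several places stand apart. Mir322 shares no stretch of 20 bases with another miRNA transcript. The next X-linked gene, the let-7 family member Mir98, named after its value was seen, had 4558 and 4226 CPM. The ranges of these 2 genes over the libraries did not overlap.

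Mir503, which begins 295 bases downstream of the Mir322 start and shares seed bases 2 to 7 with it, was far lower. It had 315 and 390 reads, or 91.8 and 67.8 CPM, a mean of 79.8 ± 17 CPM (SD, n = 2) and rank 214. Mir322 exceeded it by 77.7 times in replicate 1 and 113 times in replicate 2. The pair of miRNAs often studied together was thus counted very unequally in both pools.

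Mir351, the next hairpin downstream, had 3111 and 4698 reads, or 907 and 817 CPM. At 862 ± 63.9 CPM (SD, n = 2) it was the second member by level, 93rd of all genes and 8th on the X chromosome. Levels along the cluster thus went down and up again, since Mir503 had 0.101 and 0.0830 times the reads of Mir351. Mir542, beyond the widest gap, had 619 and 1023 reads, or 180.5 and 178 CPM, with a mean of 179 ± 1.87 CPM (SD, n = 2). Of the members, its CPM differed by the smallest factor between the libraries. That difference was within counting error (95% intervals 167 to 195 CPM in replicate 1 and 167 to 189 CPM in replicate 2). Whether Mir542 was steadier than Mir322 therefore cannot be told. Mir351 exceeded Mir542 by 5.03 and 4.59 times.

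The 3 Mir450 genes sit within 371 bases at the far end and were the lowest. Mir450b, the last hairpin, had 116 and 178 reads, or 33.8 and 30.9 CPM (32.4 ± 2.04, SD, n = 2). Mir450-1 had 10 and 23 reads, or 2.92 and 3.998 CPM (3.46 ± 0.765, SD, n = 2). Mir450-2 had 6 reads in each library, or 1.75 and 1.04 CPM (1.40 ± 0.499, SD, n = 2). Mir450b exceeded Mir450-2 by 19.3 times in replicate 1 and 29.7 times in replicate 2. Reads with several mapping places stand apart in the deposited tables, at 37.7% of all reads in replicate 1 and 35.8% in replicate 2. Where such reads are given to no gene, full reads of miR-450a-5p count for neither copy, so the values of Mir450-1 and Mir450-2 are uncertain and may leave out reads of that miRNA. How many of the set-apart reads belong to it was not tested. The other 5 members shared no stretch of 20 bases with another miRNA transcript of M21.

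From highest to lowest, the order was Mir322, Mir351, Mir542, Mir503, Mir450b, Mir450-1 and Mir450-2, and it was the same in both libraries. In all 6 neighbouring pairs of that order the ranges over the 2 libraries did not overlap. The closest pairs were Mir542 over Mir503 (1.97 and 2.62 times) and Mir450-1 over Mir450-2 (1.67 and 3.83 times). For Mir450-1 and Mir450-2 the counting intervals overlapped in replicate 1, at 1.40 to 5.36 CPM for Mir450-1 and 0.642 to 3.81 CPM for Mir450-2. No test between genes was made over the 2 libraries. Base composition also varied along the cluster, with 50.5% to 54.9% G or C in the hairpins from Mir322 to Mir542 and 30.5% to 36.2% in the 3 Mir450 hairpins. Whether this bears on the counts was not tested.

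No read fell on the strand opposite to any member in either library, so counts with and without regard to strand were the same for all 7. A count of 0 allows up to 3 counts, which is 0.875 CPM at the depth of replicate 1 and 0.522 CPM at that of replicate 2.

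By seed family, Mir322 was the most counted gene with its seed, whereas Mir351 was a minor contributor to its own. Counts per gene take in both arms, so shares by seed family are shares of gene reads, not of reads with the seed. Of 11 RefSeq genes with the seed of miR-322-5p, 10 had a row in the table and 6 averaged at least 1 CPM. Mir322 held 47.5% of their reads in replicate 1 (95% exact interval 47.1 to 47.9) and 52.4% in replicate 2 (52.1 to 52.8), a mean of 49.97 ± 3.51% (SD, n = 2). Mir15a followed with 3422 and 3017 CPM, Mir16-1 with 2779 and 2383 CPM, and Mir15b with 766 and 699 CPM. Mir195a had 461 and 470.1 CPM, and Mir16-2 had 464 and 384 CPM, so that the order of these last 2 differed between the libraries. Mir195b, Mir6342, Mir6353 and Mir6419 had no count.

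This share depends on how copies are counted. Mir16-1 and Mir16-2 encode the same miR-16-5p and share at least 20 bases, so full reads of miR-16-5p may be missing from both, as for the Mir450a pair. Without these copies the mean share of Mir322 was 62.6%, and the share including all miR-16 reads cannot be had from these tables. Mir497 was not analysed here as a gene of its own. With Mir503 added to both sides, the cluster held 50.2 ± 3.43% (SD, n = 2) of reads of genes sharing bases 2 to 7.

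**Figure D2:**
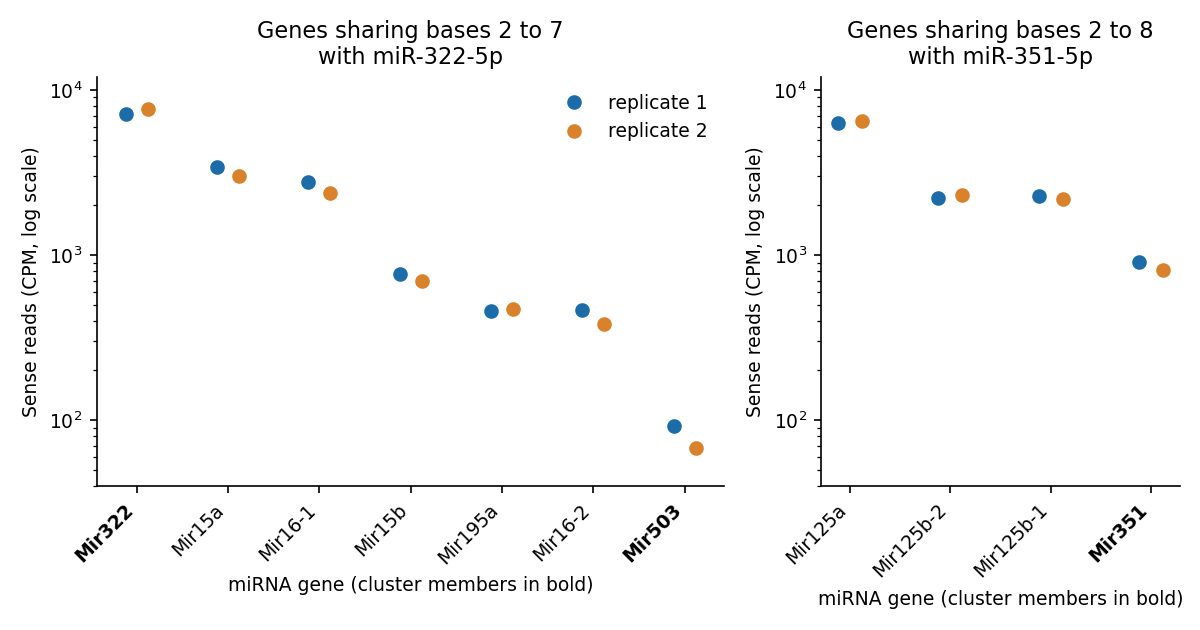
Sense reads (CPM, log scale) of genes with a count that share bases 2 to 7 with miR-322-5p, at left, and bases 2 to 8 with miR-351-5p, at right, in replicate 1 and replicate 2. Cluster members are in bold. Mir322 stands above the others at left, while Mir503 and Mir351 are the lowest shown in their panels.

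Among the 6 genes with the seed of miR-351-5p, 4 had reads. Mir351 held 7.77% of them in replicate 1 (95% exact interval 7.51 to 8.03) and 6.92% in replicate 2 (6.73 to 7.11). Mir125a, the highest of the family, had 6281 and 6491 CPM. Mir125b-2 had 2228 and 2299 CPM and Mir125b-1 2264 and 2197 CPM, and their ranges overlapped. Both encode miR-125b-5p, so that reads common to them may be missing too, and without these copies the mean share of Mir351 was 11.9%. Mir6367 and Mir6394 had no count. For the arms shown above, the other members stand alone with their seeds. Of their other arms, miR-542-5p shares its seed with Mir6966. The 3p arms of Mir450-1 and Mir450b share theirs with each other and with Mir6352. With both arms counted together, the means were 79.8 CPM for Mir503, 179 CPM for Mir542 and 32.4 CPM for Mir450b. The Mir450a pair together had 4.67 CPM in replicate 1 and 5.04 CPM in replicate 2, which may leave out full reads of miR-450a-5p.

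Between the pools, Mir503 and Mir351 were higher in replicate 1 and Mir322 was higher in replicate 2, by small amounts. Ratios are replicate 1 over replicate 2 after TMM scaling, on the log2(CPM + 1) scale, with adjusted p from the exact binomial test with Benjamini-Hochberg adjustment over 717 genes. That test compares these libraries beyond counting error and has no replicate check. Mir503 had a log2 ratio of 0.47 (95% counting interval 0.25 to 0.69, adjusted p = 0.000149). Mir351 had a log2 ratio of 0.18 (0.12 to 0.25, adjusted p = 3.46e-07), and Mir322 one of -0.07 (-0.09 to -0.05, adjusted p = 9.79e-09). Mir542 (0.05), Mir450b (0.16), Mir450-2 (0.45) and Mir450-1 (-0.33) did not pass, with adjusted p from 0.680 to 0.814.

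In that test 3 of 7 members were called, against 19.8% of all genes. Calls were more frequent at higher levels: 78.3% of genes of at least 1000 CPM were called, 39.6% of those from 100 to 1000 CPM, 14.3% of those from 10 to 100 CPM and 6.63% of those from 1 to 10 CPM. Mir503, with a mean under 100 CPM, is the called member from a range where calls were less common. When edgeR's exact test was run with a coefficient of variation set at 10%, not estimated, it called 0 members and 3 of 717 genes (0.418%). At an unadjusted p under 0.05, edgeR's exact test had 1 of 7 members, Mir503 (p = 0.0433), and 31 of 717 genes. These p-values depend on the coefficient of variation that was set. The median absolute log2 ratio was 0.18 over the members and 0.16 over all genes averaging 1 CPM or more.

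**Figure D3:**
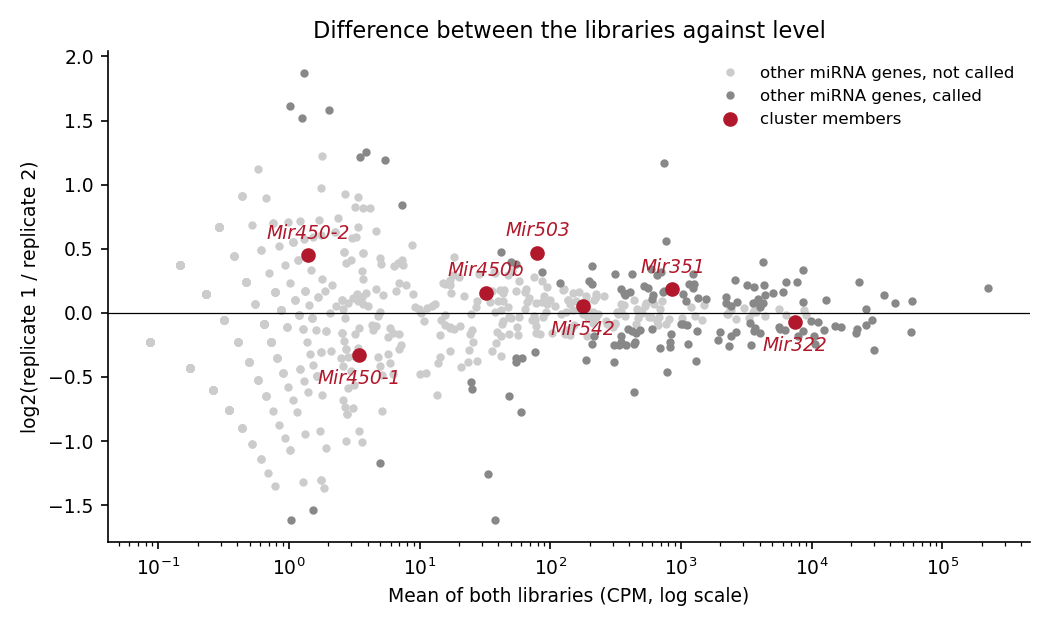
Log2 ratio of replicate 1 over replicate 2 against mean level (CPM, log scale) for all miRNA genes with a count. Cluster members are in red, and darker grey marks other genes called by the exact binomial test. Mir503 lies at 0.47, and Mir322 lies close to 0 at -0.07.

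The makeup of the cluster differed slightly between the pools. Mir322 made up 85.4% of cluster reads in replicate 1 (95% exact interval 85.0 to 85.8) and 87.5% in replicate 2 (87.2 to 87.8). Mir351 made up 10.9% and 9.31%, Mir542 2.16% and 2.03%, Mir503 1.10% and 0.773%, and Mir450b 0.405% and 0.353%. Both Mir450a copies together stayed under the share of Mir450b in each library, but full reads of miR-450a-5p may be missing from their counts. Intervals of the libraries did not overlap for Mir322 or Mir351, and they overlapped for Mir542. For Mir503 they were 0.982 to 1.23% in replicate 1 and 0.699 to 0.854% in replicate 2, which did not overlap.

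The cluster was set beside the Mir106a cluster, which lies 305429 bases away on the same strand of chromosome X. It was also set beside the Mir17 cluster of chromosome 14, a polycistron known for promoting proliferation. The Mir106a cluster of 6 genes summed to 1133 CPM in replicate 1 and 1270 CPM in replicate 2. The Mir322 cluster exceeded it by 7.38 and 6.91 times. Without Mir322, its other 6 members summed to 1.08 and 0.865 times the Mir106a cluster, and the direction differed between the libraries. The Mir17 cluster, at 39919 ± 1423 CPM (SD, n = 2), was higher, the Mir322 cluster having 0.215 and 0.214 times its reads. Mir19b-2 and Mir92-2 of the Mir106a cluster share at least 20 bases with Mir19b-1 and Mir92-1 of the Mir17 cluster. Reads common to these copies, or to Mir450-1 and Mir450-2, may be missing from the sums and ratios.

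Members were spread unequally in all 3 clusters. The highest member exceeded the lowest by 4080 and 7354 times in the Mir322 cluster, by 104 and 107 times in the Mir106a cluster, and by 2576 and 5378 times in the Mir17 cluster. In each, the lowest gene (Mir450-2, Mir19b-2 and Mir19b-1) is a copy that shares at least 20 bases with another miRNA gene. Among members that share none, a choice made after the values were seen, the spread was 211 and 248 times in the Mir322 cluster, 8.20 and 11.2 times in the Mir106a cluster, and 552 and 525 times in the Mir17 cluster. By reads assigned to a gene, the first gene of each cluster was its highest member by mean. Mir92-1, Mir92-2, Mir19b-1 and Mir19b-2 are copies that may be undercounted, so their rank within their clusters is uncertain. With clusters of few genes, these spreads are descriptions without a test.

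**Figure D4:**
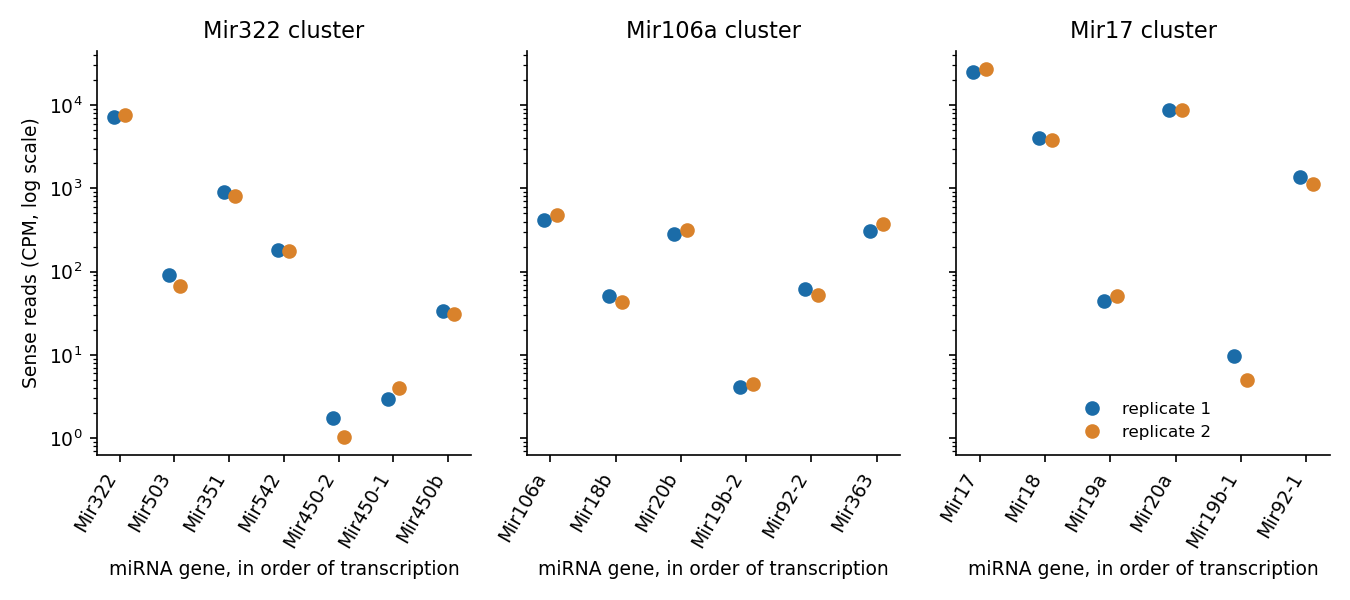
Sense reads (CPM, log scale) of each gene in order of transcription in the Mir322, Mir106a and Mir17 clusters, with replicate 1 and replicate 2 as points. By reads assigned to a gene, the first gene is the highest by mean in each panel, and Mir450-2, Mir19b-2 and Mir19b-1 are the lowest. Genes that share sequence with another miRNA gene, among them Mir92-1 and Mir92-2, may be undercounted.

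By level over the 2 libraries, the genes most like Mir322 were Mir382 of the imprinted Dlk1-Dio3 region (7235 and 8411 CPM), Mir106b, a member of the miR-17 family (8292 and 7179 CPM), and Mir125a. Their distances from Mir322 in log2(CPM + 1) were 0.13, 0.24 and 0.30. With 2 libraries this measures likeness of level and nothing more.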

How the data were processed

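The authors deposited whole read counts per miRNA gene for each library, in 3 columns (without regard to strand, sense, opposite strand), with no normalization. Per the deposited readme text, reads were on mm10 with GENCODE M4. For the aligner and the counter, nothing is given in the sources used here. The 4 rows that name no gene (unmapped, several mapping places, outside genes, ambiguous) held 13.4%, 37.7%, 3.57% and 0% of reads in replicate 1, and 16.9%, 35.8%, 3.43% and 0% in replicate 2. They were kept out of totals and tests.

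Symbols and coordinates came from GENCODE M21 (mm10), which matched 1894 of 1973 identifiers. Sense counts were scaled to CPM. Means and SD are over 2 libraries, whose counts differed beyond sampling noise over 404 genes (chi-square 27079). Seeds came from RefSeq, and shared stretches of 20 bases on either strand from M21 transcripts. edgeR 4.0.16 gave TMM factors and an exact test with a coefficient of variation of 10%, DESeq2 1.42.0 gave size factors, and scipy 1.17.1 the two-sided exact binomial test, with a threshold of 0.05. With 1 group, no quasi-likelihood contrast exists, and the coefficient of variation was set, not estimated. The binomial procedure was tested on simulated Poisson counts without variation between pools, so that test does not show how it behaves with such variation.

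Genes named are the members, genes of their seed families, the 2 clusters compared, the 3 genes most like Mir322 and the marker lists. Members and lists were chosen with earlier results of these data known.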

Additional observations from a re-analysis of the deposited data

Results flagged for a closer look

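Reads opposite to Mir497b, from the opposite-strand column, which enters none of the levels or ratios given as results, numbered 1529 in replicate 1 and 2212 in replicate 2, a mean of 415 ± 43.3 CPM (SD, n = 2), above the 3 counts that a count of 0 allows. Its sense strand had no count. The RefSeq position of miR-497a-5p, on the plus strand of chromosome 11 at 70234730 to 70234751, lies within Mir497b (minus strand) and on the strand of these reads. miR-497a-5p has the seed of miR-322-5p.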

How the results depend on the processing

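The summed level of the cluster (8562 CPM) moved by less than the replicate SD with TMM or DESeq2 scaling and with counts without regard to strand. It was 3819 when scaled to all reads in the tables, 11024 CPM without Mir99a in the total, and 0 CPM on the opposite strand. Its share was 0.382% of all reads and 1.10% without Mir99a. Leaving out a replicate gave 8356 to 8768 CPM and shares of 0.836% to 0.877%. The order of members held in each library, and 5 members were left at limits of 5 or 10 CPM. edgeR's exact test called 0 members and 3 genes, in place of 3 and 142 by the binomial test. The 3 called members, Mir322, Mir503 and Mir351, kept their direction. The other scalings and filters changed no call of a member. Pseudocounts enter only the ratios, so they could not change a call. Without genes sharing 20 bases, the share of Mir322 in its family was 62.6% and that of Mir351 was 11.9%, and the spread of members was 229 times (Mir322 cluster), 9.57 times (Mir106a cluster) and 538 times (Mir17 cluster). With reads opposite to Mir497b added, an alternative chosen after seeing the data, the share of Mir322 was 48.6%. Depth limits Mir450-1 and Mir450-2, at 6 to 23 reads a library. No paired analysis was possible because there is only 1 group.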
